A study of Mus musculus with 18 samples.

Results

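The genes described here are 50 genes of the cell cycle and of DNA replication, measured by array in the kidneys of 18 mice. They were chosen by symbol, and every probe set that carried 1 of these symbols and no other was read. Of the 50 genes, 46 had such a probe set, with 63 of the array's 12488 probe sets between them. Ccnb1, Cdc25b and Bub1b had none, and Tyms was found on probe sets that carry several symbols, so these 4 genes were not analysed here. The signal filter, a mean over all arrays at or above the 40th percentile of probe sets (118.6), was passed by 41 of the 46. Ccne2, Mcm6, Prim2, Dut and Bub1 lay under it. A gene was read on the brightest of its probe sets, and the 41 genes were tested among 5744 genes in all.

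The mice were of strain C57, and whole kidney RNA from each mouse was put on 1 array. Controls and Aprt KO mice were compared at 7 days of age (6 and 6) and at 1 month (3 and 3), with the mice in 9 same-sex littermate pairs of 1 control and 1 KO. At 7 days each genotype had 3 females and 3 males, and at 1 month 1 female and 2 males. Aprt encodes adenine phosphoribosyltransferase, which salvages adenine, and mice without it form kidney stones of dihydroxyadenine. The series text writes the genotypes as Aprt-/- and Aprt+/+; the labels name no further allele or agent, and the knockout is not described as limited to any cell type.

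A cell that divides passes in order through G1, S phase, G2 and mitosis. D-type cyclins with Cdk4 start the passage out of G1 by phosphorylating the retinoblastoma protein. This frees E2F factors to switch on genes for DNA synthesis. Genes of G2 and mitosis, many with CHR and CCAAT elements, are switched on later by complexes with B-Myb and FoxM1. In mouse kidney, new nephrons form until the first days after birth, tubules lengthen by cell division in the following weeks, and few cells divide in the adult organ.

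Upstream sequences of 6 genes that fell with age are shown first. They were picked because the promoter elements named above can be read in them, and are not the 6 largest falls. Each is the 250 bases before the transcription start in RefSeq on build GRCm38.p6, written 5′ to 3′ along the gene's strand, with motif matches in capitals. The motifs searched on both strands were the E2F words TTTCCCGC, TTTCGCGC, TTTGCCGC and TTTGGCGC, the CHR words TTTGAA and TTCGAA, and the CCAAT box. The Top2a stretch is chr11:99024190-99024439 on the minus strand, that of Mki67 is chr7:135716380-135716629 on the minus strand, and that of Rrm2 is chr12:24708004-24708253 on the plus strand. Kif11 lies at chr19:37376132-37376381 on the plus strand, Cdk1 at chr10:69352913-69353162 on the minus strand and Mcm5 at chr8:75109259-75109508 on the plus strand.
Top2a: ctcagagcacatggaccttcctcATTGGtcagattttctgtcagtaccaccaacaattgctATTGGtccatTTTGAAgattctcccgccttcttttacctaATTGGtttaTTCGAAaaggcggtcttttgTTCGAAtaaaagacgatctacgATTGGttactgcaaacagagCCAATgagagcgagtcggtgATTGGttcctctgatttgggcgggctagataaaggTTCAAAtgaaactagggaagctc
Mki67: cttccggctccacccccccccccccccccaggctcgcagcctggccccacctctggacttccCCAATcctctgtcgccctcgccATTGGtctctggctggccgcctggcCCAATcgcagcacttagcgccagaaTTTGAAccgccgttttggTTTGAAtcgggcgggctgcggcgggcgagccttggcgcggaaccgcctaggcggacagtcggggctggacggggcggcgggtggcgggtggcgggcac
Kif11: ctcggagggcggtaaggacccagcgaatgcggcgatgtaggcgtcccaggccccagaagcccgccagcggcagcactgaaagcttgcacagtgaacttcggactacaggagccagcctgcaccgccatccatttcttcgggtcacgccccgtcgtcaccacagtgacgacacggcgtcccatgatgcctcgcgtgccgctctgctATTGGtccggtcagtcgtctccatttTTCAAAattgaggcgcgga
Cdk1: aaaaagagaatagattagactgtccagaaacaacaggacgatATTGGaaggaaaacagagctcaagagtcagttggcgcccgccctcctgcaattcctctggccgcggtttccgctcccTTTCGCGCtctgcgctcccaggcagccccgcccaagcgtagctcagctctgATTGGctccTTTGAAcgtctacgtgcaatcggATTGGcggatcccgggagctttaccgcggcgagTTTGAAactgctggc
Rrm2: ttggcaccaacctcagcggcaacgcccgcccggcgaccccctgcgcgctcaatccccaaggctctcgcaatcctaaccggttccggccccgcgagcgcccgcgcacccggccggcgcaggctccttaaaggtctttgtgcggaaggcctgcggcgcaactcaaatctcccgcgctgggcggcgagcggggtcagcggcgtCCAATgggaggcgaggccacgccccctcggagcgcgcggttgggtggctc
Mcm5: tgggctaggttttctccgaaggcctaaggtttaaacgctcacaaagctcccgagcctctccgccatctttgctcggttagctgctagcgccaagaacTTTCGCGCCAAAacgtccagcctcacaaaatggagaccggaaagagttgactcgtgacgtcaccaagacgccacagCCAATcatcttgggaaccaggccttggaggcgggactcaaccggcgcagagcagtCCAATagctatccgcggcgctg

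The Top2a stretch held 6 CCAAT boxes and 4 CHR words, Mki67 held 3 and 2, and Kif11 held 1 of each. Cdk1 carried 3 CCAAT boxes, 2 CHR words and 1 E2F word. In Rrm2, 1 CCAAT box was the single match, and Mcm5 had a pair of overlapping E2F words and 2 CCAAT boxes. Birc5, which fell further than Mcm5 in both genotypes, is not shown and had 0 matches, as had Mad2l1. Over windows of 300 bases that add the 50 bases after the start, RefSeq gave 45 windows for 40 of the 50 genes. A CHR word stood in 16 of these windows (35.6%), against 19.2% of all 32851 windows in the table. The CCAAT box stood in 28 (62.2%), against 37.4%, and an E2F word in 9 (20%), against 2.265%. In the 6003 windows of all genes tested here, the shares were 13.6% for CHR words, 37.1% for CCAAT boxes and 3.95% for E2F words. In the 38 windows of tested cell cycle genes they were 34.2%, 60.5% and 21.1%. By role, E2F words stood in 5 of 8 windows of origin licensing and helicase genes, 2 of 9 of fork enzymes and 1 of 6 of G1 genes. They stood in 1 of 8 windows of G2 and mitotic drivers, and in 0 of 5 of nucleotide supply genes, 0 of 6 of spindle genes and 0 of 3 of proliferation markers. CHR words stood in 5 of 8 windows of G2 and mitotic drivers, 4 of 6 of spindle genes and 3 of 3 of proliferation markers. They also stood in 3 of 8 windows of origin licensing and helicase genes and 1 of 9 of fork enzymes, and in 0 of 6 of G1 and 0 of 5 of nucleotide supply genes. A match is a description of these letters, not a measured binding site.

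The deposited signals are MAS5 intensities scaled by array, and the number of arrays limits the precision. Array medians were 186.9 to 216.4 at 7 days and 160.1 to 178.9 at 1 month, without overlap. The main fit used the signals without further scaling. On the brightest Aprt probe set, arrays labelled Aprt KO gave 41.9 to 135 at 7 days and 52.3 to 86.5 at 1 month, and arrays labelled control gave 51.3 to 148 and 104 to 110. Set against the midpoint of the group medians at each age, 4 arrays went against their labels. They were the arrays labelled 7-day Aprt KO 4, 7-day control 1, 7-day control 2 and 1-month Aprt KO 1. The last of these (86.5) lay above the midpoint but below every 1-month control, so the 1-month groups did not overlap. The pair of 7-day control 4 and 7-day KO 4 also stood apart, with a highest signal of 10767 and 10167 where every other array reached at least 25718. Counts are given with and without the 4 arrays, and each call that ends without them is named beside its gene. Each array is 1 mouse, so p-values measure the spread between these mice, pooled over the groups of both ages. The labels give no array batch or scan date, so age and any batch that coincides with it cannot be told apart.

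The cell cycle genes were lower at 1 month than at 7 days in both genotypes. In controls, 36 of the 41 genes fell and 0 rose, where a call is an adjusted p under 0.05 over all 5744 genes (limma with Benjamini-Hochberg adjustment). Over all genes tested, 26.1% were called lower and 14.8% higher in the same comparison. The signal filter is a mean in which 7-day arrays outnumber 1-month arrays. It favours genes high at 7 days, within the 41 and over all genes, and each count of falls carries this limit. Top2a and Kif11, for example, had every 1-month signal under the filter value of 118.6. The median change of the 41 genes was -1.21 on the log2(signal + 29) scale, against -0.11 over all genes, and 26 genes fell by more than 1 on that scale. In arrays labelled Aprt KO, 34 of the 41 fell and 1 rose (Ccnd1), with a median of -1.11 against -0.12, where 25.3% of all genes were called lower and 15% higher. There, 24 genes fell by more than 1. In 34 genes every 1-month control lay below every 7-day control, against 21% of all genes; the count was 36 for the arrays labelled Aprt KO, against 22.1%.

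Of the 41 genes, 33 fell in both genotypes, Ccnd3, Cks2 and Cdc45 were called in controls and not in KO arrays, Ccne1 in KO arrays and not in controls, and Prim1, E2f1, Foxm1 and Ccnd1 were called lower in neither. Whether age acted differently in the genotypes is the interaction, in which 0 of the 41 genes were called. The age comparisons counted 36 and 31 called genes, respectively, without the 4 arrays whose Aprt signal went against the label, and 36 and 33 without the pair of 7-day control 4 and KO 4. Centring each array on its median moved the median change of all genes to 0.11 in controls and in KO arrays, and the lower share of all called genes from 63.8% to 39.6% and from 62.9% to 37.3%. The median of the cell cycle genes was then -0.99 and -0.88. Of the 41 genes, 36 were then called in controls, of which 35 were among those called without centring and Ccnd1 was called higher; in KO arrays 32 were called. Since whole kidneys were measured, fewer cycling cells and less of these RNAs per cell cannot be told apart.

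**Figure D1:**
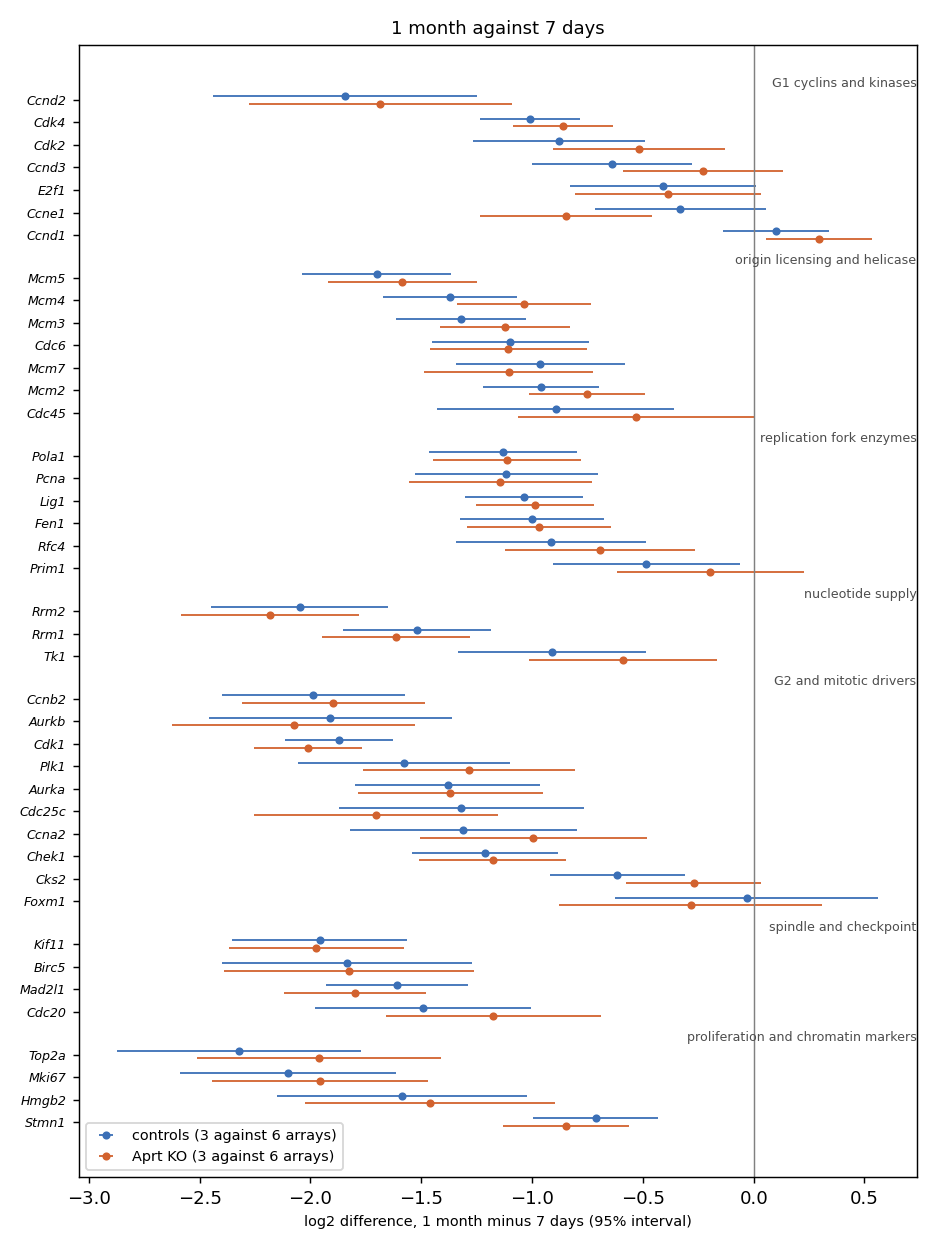
Log2 difference between 1 month and 7 days for the 41 genes tested, grouped by role, in controls (blue) and arrays labelled Aprt KO (orange), each 3 against 6 arrays with 95% intervals from the limma fit. The points lie left of 0 except for Ccnd1, from -2.32 (Top2a in controls) to 0.30 (Ccnd1 in KO).

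The D-type cyclins, which start the cycle in answer to growth signals, did not all fall. Ccnd2 gave 171 to 333 in 7-day controls (median 229) and 138 to 234 in 7-day KO arrays (median 208). At 1 month the 3 controls were at 42.4, 77.7 and 37.9 and the 3 KO arrays at 14.3, 126 and 36.5. All 1-month arrays thus lay below every 7-day array of either genotype. The fall was -1.85 (SE 0.28, adjusted p = 4.52e-05 by limma) in controls and -1.68 (SE 0.28, adjusted p = 0.000113) in KO arrays.

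Ccnd3 was lower at 1 month in controls, with 1107, 1263 and 641, than at 7 days, with 1165 to 1966 (median 1602). One of the 3 values overlapped the 7-day range. The change was -0.64 (SE 0.17, adjusted p = 0.00624 by limma), and the call was lost without 1-month control 3 (adjusted p = 0.0526), without the 4 arrays with Aprt against the label (0.0599), with median centring (-0.42, adjusted p = 0.0613) and in females alone (0.107). In KO arrays the 1-month values of 1134, 1086 and 1046 stood against 1216 to 1431 (median 1303), without overlap, and the change of -0.23 (SE 0.17) was not called (adjusted p = 0.318 by limma).

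Ccnd1 was not called in controls. Its 7-day controls gave 1824 to 2125 (median 2006) and its 1-month controls 2064, 2303 and 2203, a difference of 0.10 (SE 0.11, adjusted p = 0.513 by limma). With each array centred on its median the difference was 0.32 and was called (adjusted p = 0.0342). In KO arrays the signal was 1304 to 1828 (median 1601) at 7 days and 1829, 2151 and 1875 at 1 month. That rise of 0.30 (SE 0.11) was called by limma (adjusted p = 0.046), but in 16 of 41 alternative fits only, and the adjusted p ran from 0.00139 to 0.309. It was lost on leaving out any of 7-day KO 1, 2, 4 and 5, 7-day control 2, 4, 5 and 6, 1-month KO 1 and 2, and 1-month control 1 and 3, with adjusted p up to 0.226. Without the 4 arrays with Aprt against the label the adjusted p was 0.299 by limma, and at the female level of the sex term 0.309.

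Among the other G1 genes, Cdk4, the kinase partner of the D-type cyclins, was at 3063 to 3594 in 7-day controls and 1804, 1508 and 1478 in 1-month controls, 48.2% of the 7-day mean. Cdk2, the partner of cyclin E, fell by 0.88 in controls (adjusted p = 0.000889 by limma). In KO arrays its fall of 0.52 (adjusted p = 0.032) was lost in 18 of 41 alternative fits, among them each fit without 1 of the 3 1-month KO arrays (adjusted p = 0.084 to 0.0885), the fit without the 4 arrays with Aprt against the label (0.138), and quantile normalization and median centring (-0.31 and -0.29, adjusted p = 0.193 and 0.219). Cyclin E1, Ccne1, gave 244 to 526 (median 398) in 7-day controls and 303, 313 and 267 in 1-month controls. Its KO arrays were at 273 to 638 (median 397) and then at 231, 209 and 171. The KO groups did not overlap and the control groups did, with changes of -0.85 (SE 0.18, adjusted p = 0.00122) and -0.33 (SE 0.18, adjusted p = 0.168 by limma). The KO call was lost with the difference read at the female level of the sex term (adjusted p = 0.111). E2f1, the E2F factor of the G1 to S switch, was not called in either genotype on its brightest probe set.

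The genes of origin licensing and of the replicative helicase fell in controls in 7 of 7 cases and in KO arrays in 6 of 7, with medians of -1.10 and -1.11. They load and start the MCM ring that unwinds DNA. Mcm5, a subunit of that ring, was the furthest down: 7-day controls gave 1100 to 2090 (median 1753) and 1-month controls 431, 582 and 491, while KO arrays gave 1253 to 1676 at 7 days and 536, 447 and 480 at 1 month. Every 1-month array lay below every 7-day array. The changes were -1.70 (SE 0.16, adjusted p = 1.44e-07) and -1.58 (SE 0.16, adjusted p = 3.49e-07 by limma). Mcm2, Mcm3, Mcm4, Mcm7 and the loading factor Cdc6 fell in both genotypes, with changes between -1.37 and -0.75. Cdc45, which joins the ring to activate it, changed by -0.89 in controls (adjusted p = 0.00886 by limma), a call lost without 1-month control 1 (adjusted p = 0.311) and with quantile normalization (0.0517), and by -0.53 in KO arrays (adjusted p = 0.108).

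Of the 6 replication fork enzymes tested, 5 fell in each genotype, with medians of -1.02 and -0.98. Pcna, the sliding clamp that holds DNA polymerase on its template, gave 1256 to 2311 (median 1871) in 7-day controls and 671, 764 and 1335 at 1 month. The 1-month control 3 value overlapped that range, and in KO arrays 645, 704 and 1038 lay below all of 1391 to 2280. Pcna changed by -1.12 (SE 0.20, adjusted p = 0.000176) in controls and by -1.14 (SE 0.20, adjusted p = 0.000137 by limma) in KO arrays. Pola1, Lig1, Fen1 and Rfc4, a polymerase, a ligase, a flap nuclease and a clamp loader subunit, fell in both genotypes, with changes between -1.13 and -0.69. The Rfc4 call in KO arrays was lost without 1-month KO 1 (adjusted p = 0.172 by limma) or KO 2 (0.0614), without the 4 arrays with Aprt against the label (0.21), and with quantile normalization (0.12) or median centring (0.106). Prim1, the catalytic subunit of primase, did not pass in either genotype; its change of -0.48 in controls (adjusted p = 0.0629 by limma) was called in 8 of 40 alternative fits.

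The enzymes that supply deoxynucleotides fell in 3 of 3 cases in both genotypes. Rrm2, the regulated subunit of ribonucleotide reductase, was at 750 to 1045 (median 924) in 7-day controls and 152, 167 and 359 in 1-month controls. In KO arrays it was at 644 to 918 (median 811) and then at 136, 134 and 240. Every 1-month array was below every 7-day array, with 1-month control 3 the highest of the 6. The changes were -2.05 (SE 0.19, adjusted p = 1.18e-07) and -2.18 (SE 0.19, adjusted p = 5.89e-08 by limma), and Rrm1, the large subunit, changed by -1.52 and -1.61. Tk1, thymidine kinase of the S phase salvage route, gave 784 to 1547 (median 1224) and then 517, 768 and 537 in controls, a fall of 0.91 (SE 0.20, adjusted p = 0.00139 by limma) whose call was lost without 1-month control 1 (adjusted p = 0.0554). Its fall in KO arrays was 0.59 (SE 0.20, adjusted p = 0.0257) and was lost on leaving out 7-day KO 1 or 2 or any of the 3 1-month KO arrays, with adjusted p up to 0.0924 over these. Without the 4 arrays with Aprt against the label the adjusted p was 0.0919, with quantile normalization 0.0723 and with probe sets averaged 0.128. At the female level of the sex term it was 0.0759. Median centring left a change of -0.36 (adjusted p = 0.175 by limma). The dimmer Tk1 probe set was under the filter.

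Genes that drive G2 and mitosis fell in 9 of 10 cases in controls and 8 of 10 in KO arrays, with medians of -1.35 and -1.33. Cdk1, the kinase that starts mitosis, gave 872 to 1080 (median 1010) in 7-day controls against 226, 225 and 323 at 1 month. The KO arrays gave 830 to 971 (median 880) against 179, 214 and 230. The ages lay far apart in both genotypes. Its 1-month signal was 26.3% and 23.2% of the 7-day mean, a change of -1.87 (SE 0.12, adjusted p = 7.46e-10) and -2.01 (SE 0.12, adjusted p = 3.31e-10 by limma).

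Ccnb2, a B-type cyclin that partners Cdk1, was at 1980 to 3959 (median 2514) in 7-day controls and at 558, 631 and 874 in 1-month controls. KO arrays gave 1993 to 3194 (median 2471) and then 667, 591 and 714, so the ages did not overlap. The changes were -1.99 (SE 0.20, adjusted p = 2.62e-07) and -1.90 (SE 0.20, adjusted p = 4.62e-07 by limma). Aurkb, the kinase of the chromosomal passenger complex, gave 324 to 580 (median 360) and then 53.1, 82.5 and 166 in controls. In KO arrays its signal was 293 to 406 (median 360) and then 36.5, 46.5 and 170. At 1 month the third array of each genotype was the highest, and all 6 lay below the 7-day arrays. Aurkb changed by -1.91 (SE 0.26, adjusted p = 1.24e-05) and -2.08 (SE 0.26, adjusted p = 4.62e-06 by limma).

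Plk1, Aurka, Cdc25c, Ccna2 and Chek1 fell in both genotypes, with changes between -1.70 and -0.99. The Ccna2 call in controls was lost without 1-month control 1 (adjusted p = 0.063 by limma). Cks2, a small subunit of Cdk complexes, gave 1333 to 1857 (median 1573) and then 876, 956 and 1266 in controls, a change of -0.62 (SE 0.15, adjusted p = 0.00232) lost without 1-month control 1 (adjusted p = 0.117 by limma). In KO arrays it was at 1154 to 1776 (median 1319) and then at 1151, 1134 and 1086, a change of -0.27 (SE 0.15, adjusted p = 0.151). Foxm1, a transcription factor of the mitotic genes, did not pass in either genotype on its brightest probe set, with -0.03 (SE 0.28) in controls.

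The 4 spindle and checkpoint genes tested fell in both genotypes, with medians of -1.72 and -1.81. Kif11, the motor that pushes spindle poles apart, was at 215 to 461 (median 337) in 7-day controls and 46.6, 69.8 and 82.4 at 1 month. Its KO arrays were at 179 to 370 (median 301) and then 64.9, 50.8 and 42.9. The groups of the 2 ages stood far apart, with changes of -1.96 (SE 0.19, adjusted p = 1.79e-07) and -1.97 (SE 0.19, adjusted p = 1.74e-07 by limma).

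Birc5, survivin of the same passenger complex, spread more. Its 7-day controls gave 245 to 611 (median 566), with control 4 far below the rest, and its 1-month controls 53.4, 167 and 232. In KO arrays it gave 379 to 697 (median 486) and then 107, 108 and 198. The ages did not overlap in either genotype, with changes of -1.84 (SE 0.27, adjusted p = 2.68e-05) and -1.83 (SE 0.27, adjusted p = 2.91e-05 by limma). Cdc20, the activator of the anaphase-promoting complex, and Mad2l1, its checkpoint inhibitor, fell in both genotypes, with changes between -1.80 and -1.17.

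The proliferation and chromatin markers fell in 4 of 4 cases in both genotypes. Top2a, the topoisomerase that untangles sister chromatids, gave 271 to 346 (median 320) in 7-day controls and 6.63, 47.8 and 115 in 1-month controls. The KO arrays were at 211 to 393 (median 266) and then at 64, 51.9 and 50.3. The 1-month control 1 had almost none of the signal, and the 1-month KO arrays were close to each other. The changes were -2.32 (SE 0.26, adjusted p = 1.3e-06) and -1.96 (SE 0.26, adjusted p = 1.01e-05 by limma), and these understate a fall to signals this low, since 29 was added before the log.

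Mki67, which encodes the Ki-67 antigen of cycling cells, gave 345 to 489 (median 438) in 7-day controls and 26.8, 103 and 193 at 1 month. In KO arrays it gave 317 to 482 (median 347) and then 66.6, 73.7 and 137. Control 1 was again the lowest of the 1-month arrays, and no 1-month array reached the 7-day range. Mki67 changed by -2.10 (SE 0.23, adjusted p = 9.61e-07) and -1.96 (SE 0.23, adjusted p = 2.43e-06 by limma). Hmgb2, a chromatin protein, changed by -1.59 and -1.46. Stmn1, which destabilises microtubules, changed least of the 4, by -0.71 and -0.85.

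**Figure D2:**
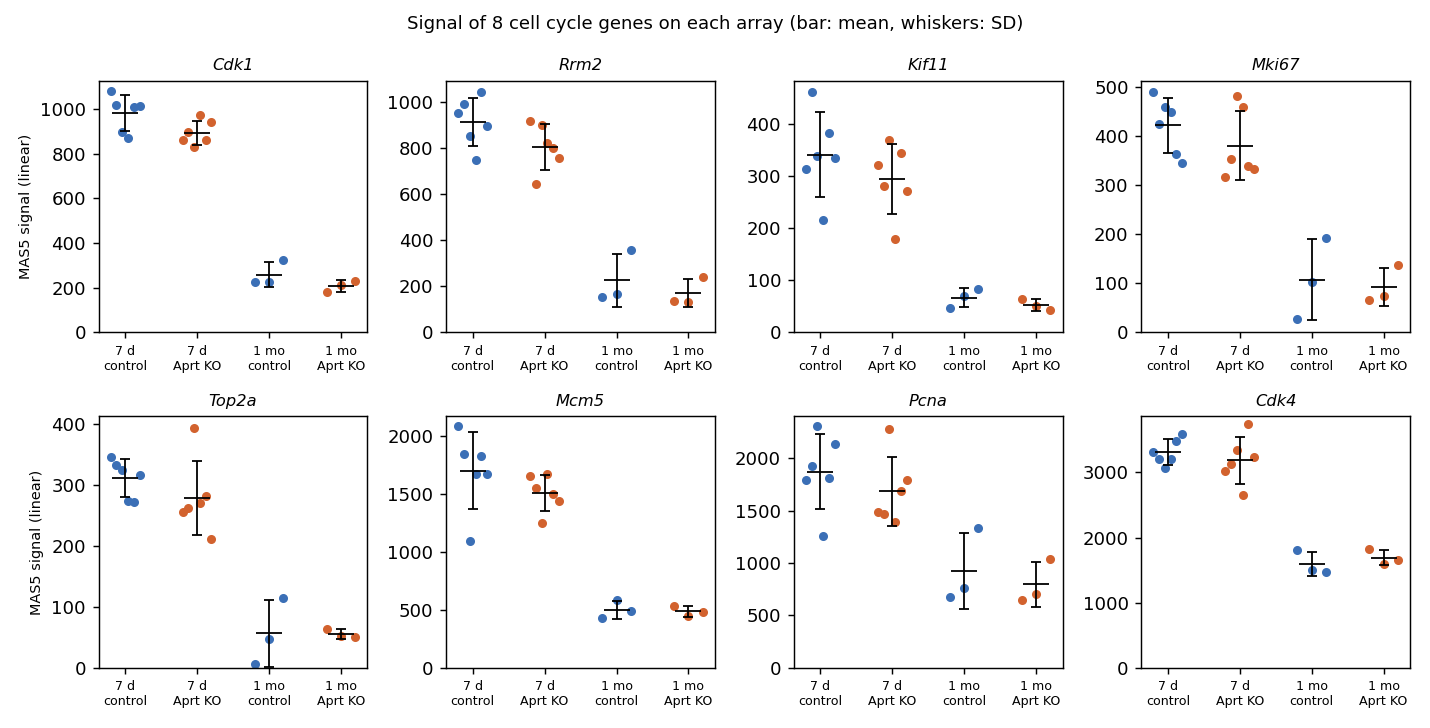
MAS5 signal (linear, from 0) of 8 of the genes on each of the 18 arrays, by group, with the mean and SD of each group. In Cdk1, Rrm2, Kif11, Mki67, Top2a, Mcm5 and Cdk4 every 1-month array lies below every 7-day array, and in Pcna 1 of the 1-month controls (1335) reaches the 7-day range.

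Several genes had probe sets that disagreed. Foxm1 was flat on its brightest probe set, a type whose name ends in _g_at, while its second, dimmer and under the filter, gave 33.5 to 236 (median 194) in 7-day controls and 23.7, 24.6 and 16.3 at 1 month, 12.6% of the 7-day mean. A second Mki67 probe set gave 101% of the 7-day mean where the brighter gave 25.5%. On Plk1, 2 probe sets fell and the third changed by 0.19 in controls (adjusted p = 0.659 by limma). With the probe sets of a gene averaged, E2f1 (-0.74) and Foxm1 (-0.92) were called lower in controls (adjusted p = 0.000302 and 0.00285 by limma) and in KO arrays (0.00212 and 0.00974) while Tk1 was not called in controls (adjusted p = 0.269). Tested one by one, at least 1 probe set was called in 36 of the 41 genes in controls and in 35 in KO arrays. Of the 5 genes under the filter, Ccne2, Prim2 and Bub1 fell in controls in a fit without the filter, with changes of -0.52, -1.40 and -1.42 (adjusted p = 0.0404, 0.00014 and 4.87e-05 by limma). In KO arrays Prim2 and Bub1 fell there, and Ccne2 was not called (adjusted p = 0.138). Mcm6 and Dut were called in neither genotype.

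The genotypes were compared within each age to ask whether loss of Aprt altered these genes at that age. At 7 days 1 of the 41 genes was called, Ccnd1, which was lower in arrays labelled Aprt KO. Over all genes tested, 0.679% were called lower and 2.54% higher. The median difference was -0.14 for the 41 genes and -0.02 for all genes, and 35 of the 41 had a value below 0 (85.4%), against 54.8% of all genes. At an unadjusted p under 0.05 by limma there were 3 of the 41, against 613 of all 5744 genes. On the mean log2 signal of the 41 genes, KO was below its littermate in 4 of 6 pairs, and the ranges of 9.11 to 9.30 in KO and 9.19 to 9.46 in controls overlapped.

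The 6 7-day controls gave Ccnd1 signals of 1824, 1968, 2125, 2125, 2022 and 1990, and the 6 KO arrays gave 1373, 1304, 1698, 1540, 1661 and 1828. The KO array was below its littermate in 6 of 6 pairs, and the groups met only at KO 6 and control 1. Control 1, control 2 and KO 4, each in a different pair, had Aprt against the label. The littermates of control 1 and control 2 gave the lowest signals, 1304 and 1373. The difference was -0.36 (SE 0.09, 95% interval -0.55 to -0.17, adjusted p = 0.0354 by limma). With the litter pair as a block the adjusted p was 0.0021, and 0.000685 with the pair as a random block.

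This call rested on the arrays included. It held in 20 of 41 alternative fits, with differences from -0.41 to -0.31 and adjusted p from 0.000685 to 0.171. Leaving out 1 array ended it for 7-day KO 1, 2, 4 and 5, 7-day control 2 to 6, and the first 1-month array of each genotype (adjusted p = 0.0504 to 0.108), and without the 4 arrays whose Aprt went against the label the difference was -0.40 (adjusted p = 0.171 by limma). The second Ccnd1 probe set was also below the littermate in 6 of 6 pairs, at 300 to 418 in KO arrays and 420 to 538 in controls, without overlap; its difference of -0.34 (SE 0.18) had an adjusted p of 0.596 in a fit over all probe sets.

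The next smallest p-values at 7 days belonged to Prim1, Tk1, Foxm1 and Cks2. Prim1 was at 114 to 208 (median 154) in controls and 82.8 to 204 (median 110) in KO arrays, below its littermate in 6 of 6 pairs, a difference of -0.35 (SE 0.16, adjusted p = 0.435 by limma). Tk1 was at 784 to 1547 (median 1224) and 662 to 1076 (median 883), below in 5 of 6, a difference of -0.35 (SE 0.16, adjusted p = 0.442). With the litter pair as a block Tk1 was called (adjusted p = 0.0273 by limma; 0.0388 as a random block).

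Foxm1 on its brightest probe set ran the other way, at 558 to 1081 (median 898) in controls and 634 to 1554 (median 1468) in KO arrays, above the littermate in all 6 pairs. Its difference was 0.46 (SE 0.23, adjusted p = 0.497 by limma), and blocking on littermates gave an adjusted p of 0.04 with a fixed block and 0.0569 with a random one. The dimmer Foxm1 probe set did not share this direction, with KO lower in 4 of 6 pairs. Cks2 was lower in 6 of 6 pairs, with -0.21 (SE 0.12, adjusted p = 0.616). Every group pair among these 4 genes overlapped. With the pair as a fixed block, 3 of the 41 genes were called at 7 days, and 2 with it as a random block, where 500 and 522 of all genes were called against 185 without it.

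The proliferation markers did not pass at 7 days. The 95% interval of the difference ran from -0.60 to 0.28 for Top2a, from -0.53 to 0.24 for Mki67 and from -0.32 to 0.07 for Cdk1. The values on these arrays were compatible with any difference inside those bounds, 0 included. Ccnd2 and Ccnd3 were lower in KO in 5 of 6 pairs each, with -0.23 (SE 0.23, adjusted p = 0.908) and -0.24 (SE 0.14, adjusted p = 0.637 by limma).

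**Figure D3:**
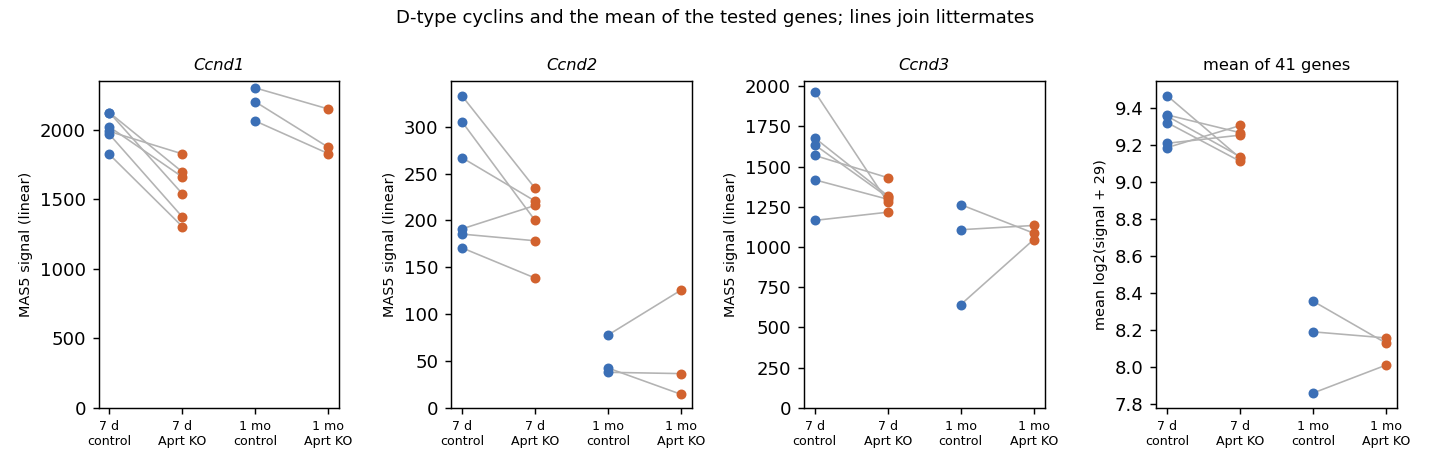
MAS5 signal of the 3 D-type cyclins (linear, from 0) and mean log2(signal + 29) of the 41 genes on each array, with lines between littermates. Each of the 6 lines for Ccnd1 at 7 days falls from control to KO, and the mean of the 41 genes falls in 4 of 6 pairs at 7 days and 2 of 3 at 1 month.

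At 1 month 0 of the 41 genes were called, and the median difference was -0.03. An unadjusted p under 0.05 by limma was found in 1 of the 41, against 265 of all 5744 genes. Over all genes, 0.0174% were called lower and 0.296% higher. Ccne1 had the smallest p, with 303, 313 and 267 in controls and 231, 209 and 171 in KO arrays. The groups did not overlap and KO was lower in 3 of 3 pairs, with -0.48 (SE 0.21, adjusted p = 0.91 by limma). Cdk1 (226, 225 and 323 against 179, 214 and 230) differed by -0.27 (SE 0.13), and Stmn1 (2150, 2467 and 2662 against 1750, 1904 and 2232) by -0.30 (SE 0.15), both lower in 3 of 3 pairs with an adjusted p of 1. Cdc20 was at 292, 490 and 602 in controls and 646, 643 and 530 in KO arrays, a difference of 0.42 (SE 0.26), and Mad2l1 at 182, 242 and 353 and 148, 247 and 226, a difference of -0.27 (SE 0.17). Both had overlapping groups and an adjusted p of 1 (limma). The 95% interval for Mki67 ran from -0.55 to 0.55 and that for Top2a from -0.42 to 0.82. With 3 arrays a group, the values were compatible with any difference inside those bounds, 0 included.

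**Figure D4:**
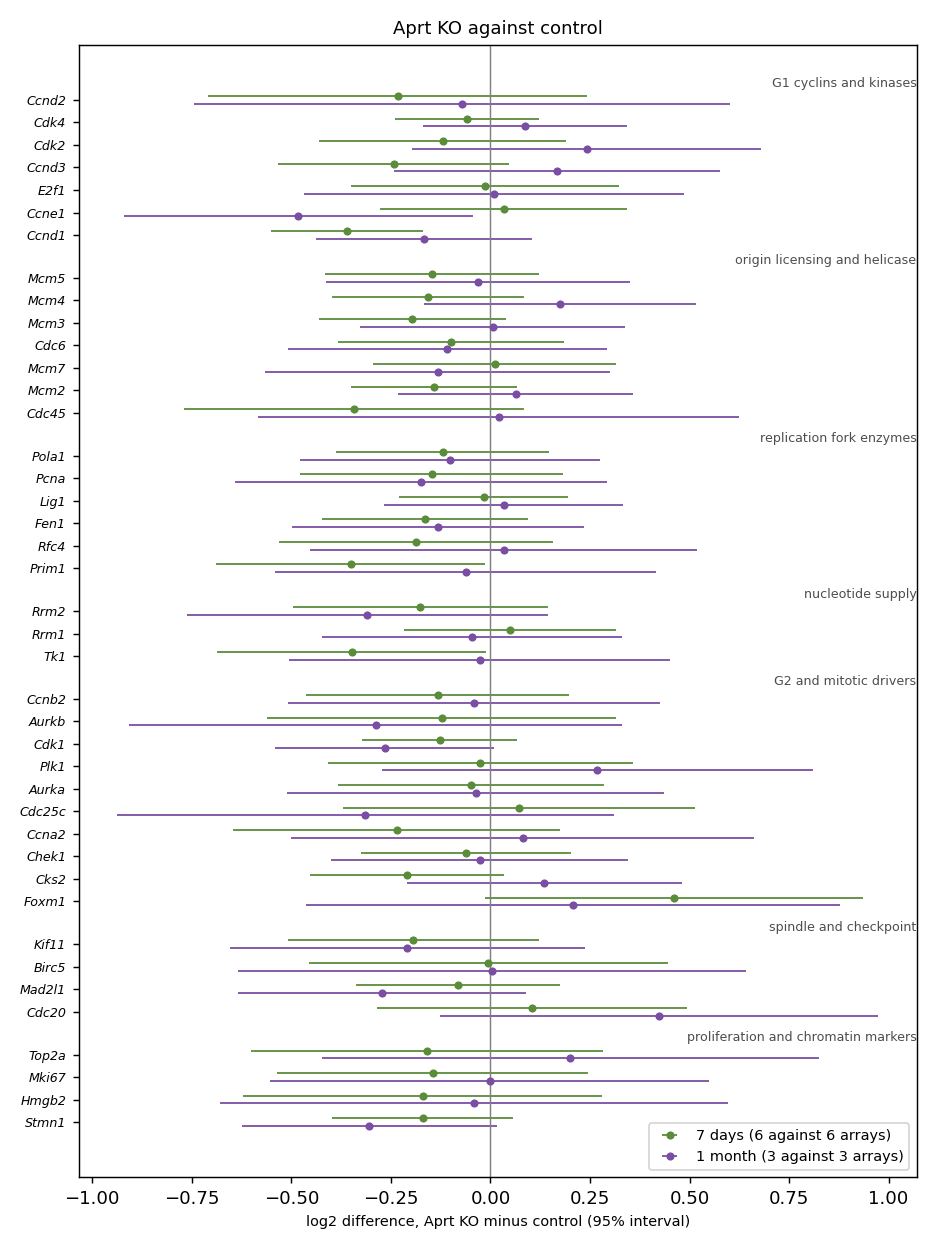
Log2 difference between arrays labelled Aprt KO and control for the 41 genes at 7 days (green, 6 against 6 arrays) and at 1 month (purple, 3 against 3 arrays), with 95% intervals from the limma fit. Points at 7 days lie between -0.36 (Ccnd1) and 0.46 (Foxm1), and points at 1 month between -0.48 (Ccne1) and 0.42 (Cdc20).

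The interaction asks whether the genotype difference changed with age. Of the 41 genes 0 were called, where 0.4% of all genes were. An unadjusted p under 0.05 by limma was found in 0 of the 41, against 307 of all 5744 genes. Ccne1 had the smallest p, at -0.52 (SE 0.26, adjusted p = 0.952 by limma), followed by Ccnd3 at 0.41 (SE 0.24) and Cks2 at 0.35 (SE 0.20). For Ccnd1 the interval ran from -0.14 to 0.53, so its lower level at 7 days was not shown to differ from that at 1 month (-0.17, SE 0.13).

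Other genes of the cycle were read from 4 lists that hold none of the 50. Of 28 further mitosis genes tested, 27 fell with age in each genotype, with a median of -1.33 in controls. Cks1b, a Cdk subunit that also serves in the destruction of p27, changed by -2.81 (SE 0.12) and -2.88 (SE 0.12), Anln, a scaffold of the cleavage furrow, by -2.01 and -2.03, and Ckap2, a spindle protein, by -1.89 and -1.56. Of 25 further replication genes, 18 fell in controls and 19 in KO arrays, with 0 rising. Uhrf1, which guides DNA methylation to new strands, changed by -1.98 and -1.59, Pold2, a polymerase delta subunit, by -1.70 and -1.57, and the histone chaperone subunit Chaf1a by -1.67 and -1.17. Of 9 further G1 regulators, Tfdp1, the dimer partner of E2F factors, fell (-1.44 and -1.38) and Cdc34, a ubiquitin-conjugating enzyme, rose (0.50 and 0.47).

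Inhibitors and brakes of the cycle moved both ways. Of 17 tested, 7 fell and 3 rose in controls, and 7 fell and 2 rose in KO arrays. Cdkn1c, which encodes the Cdk inhibitor p57, changed by -3.18 (SE 0.14, adjusted p = 7.91e-12) in controls and -1.88 (SE 0.14, adjusted p = 9.99e-09 by limma) in KO arrays. It was also lower in KO at 7 days, by -0.79 (SE 0.11, adjusted p = 0.000266), and its interaction was called at 1.30 (SE 0.20, adjusted p = 0.00409). Cdkn1a, which encodes p21, fell by 1.61 and 1.72 with age and differed by -0.03 (SE 0.12) between genotypes at 7 days. Gadd45g, a stress-induced growth brake, rose in controls by 1.41 (SE 0.20, adjusted p = 1.63e-05) and changed by 0.20 (adjusted p = 0.444 by limma) in KO arrays. The Gadd45g interaction of -1.20 was not called, so a different age change in the genotypes was not shown for it. Btg2, an antiproliferative gene, was higher in KO at 7 days by 0.45 (SE 0.09, adjusted p = 0.00558). Of the 79 genes of the 4 lists tested, Cdkn1c and Btg2 were the 2 called at 7 days and 0 were called at 1 month.

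Markers of kidney cell types moved beside the age change, and their part in it was not tested. Fibroblast and stroma markers fell in 8 of 8 cases in controls and 7 of 8 in KO arrays, with a summed signal of 23255 to 32195 in 7-day controls and 4727 to 5704 at 1 month, and of 27731 to 34293 and 9366 to 10792 in KO arrays. Markers of the thick limb and distal tubule rose in 6 of 6 cases in both genotypes (sum 12310 to 14445 and then 26833 to 38624 in controls). Proximal tubule markers rose in 6 of 10 cases in controls and 8 of 10 in KO arrays (sum 40652 to 71613 and then 81202 to 112794 in controls). Endothelial markers fell in 4 of 7 and 3 of 7 cases (sum 4705 to 6526 and then 2666 to 3378 in controls), and the 1 podocyte marker tested, Synpo, fell in both. Myeloid markers fell in 7 of 8 cases in KO arrays, with a median of -1.17 and a sum of 7100 to 10277 and then 3712 to 4899. In controls 0 of 8 fell and 1 rose (sum 3006 to 5316 and then 2855 to 3650), and 1 of 8 was called in the interaction. Of 2 collecting duct markers, 1 rose in controls and 2 in KO arrays, and of 4 erythroid markers 0 and 2 rose. Of the list for nephron progenitors and forming nephrons, 3 of 10 genes fell in each genotype, and Six2, Ret and Wnt11 of that list were under the signal filter.

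Beside the genotype comparison at 7 days, myeloid markers rose in 8 of 8 cases in KO, with a sum of 3006 to 5316 in controls and 7100 to 10277 in KO arrays; Adgre1, Itgam and Itgb2 were under the filter. At the same age the thick limb list had 2 of 6 lower, the proximal tubule list 1 of 10 lower, the collecting duct list 1 of 2 lower (Hsd11b2, -0.79), the erythroid list 1 of 4 lower (Slc4a1, -0.79) and the stroma list 1 of 8 higher. At 1 month, 5 of 8 stroma markers were higher in KO (sum 4727 to 5704 in controls and 9366 to 10792 in KO arrays). Lists for adrenal gland, skeletal muscle and fat had medians of 1.76, 2.04 and 0.76 at 1 month with 0 genes called, and skeletal muscle sums of 198 to 287 in controls against 315 to 6975 in KO arrays. The part of these markers in the differences between genotypes was not tested.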

How the data were processed

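Kidney RNA of 18 mice was measured on Affymetrix arrays as biotin-labelled cRNA, per the labels' protocols. The deposited values are linear intensity signals for 12488 probe sets, which the authors made in MAS5 and GCOS, going by the submitters' processing notes; of versions and the scaling target, the sources used here say nothing. Tests used these values as log2 of the signal plus 29, the 20th percentile of all values after rounding. Genes were kept at a mean signal of at least 118.6 (40th percentile), and each was read on its brightest probe set with a single symbol in the platform annotation.

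In limma 3.58.1 (R 4.3.3; eBayes with an intensity trend) the 18 arrays shared 1 linear fit, with 1 term per group and a centred sex term per age, so that age differences are averaged over the sexes; it had 12 residual degrees of freedom and 5.7 prior ones (median). The fit was tested on simulated data. Tests were two-sided, adjusted by Benjamini-Hochberg over 5744 genes and called under 0.05. The labels name each KO mouse's littermate; deviations of littermates correlated from 0.222 to 0.666 over the 9 pairs, so the numbers pair the samples, and blocked fits are alternatives. Each gene with the largest falls with age (8 per genotype), a call or 1 of the 5 smallest p-values between genotypes, and each D-type cyclin, was given in full; the rest were summarised, except that Mcm5, Pcna, Cdk2, Cdk4, Cdc45, Rfc4 and Ccna2 were singled out after their values were seen. From the other lists, genes called between genotypes and the 3 largest called age changes in controls were named. The 50 genes and all lists were chosen with earlier results of these data known. Figures were drawn with matplotlib 3.10.9.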

Additional observations from a re-analysis of the deposited data

Results flagged for a closer look

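Among the 41 genes, each 7-day group of 6 arrays was searched for an array far from the rest, where the gap to the nearest array exceeds 0.625 of the group's range. Chance gives about 1 such group in 20, and 5 of 82 were found, all in controls. Aurkb was highest in 7-day control 1, at 580.2 against a group median of 360. Birc5 and Cdc6 were lowest in 7-day control 4, at 245.3 and 200.3 against medians of 566 and 250.1. Mcm5 and Mcm7 were lowest in 7-day control 3, at 1100 and 473 against medians of 1753 and 899. Control 4 belongs to the littermate pair with the low highest signals, and control 1 is among the arrays whose Aprt signal went against the label.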

How the results depend on the processing

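Of 43 alternatives, 39 planned and 4 chosen after seeing the data, none reversed a named gene's called difference. At 7 days, 0 of the 41 genes were called with probe sets averaged, with only the compared groups fitted, without the intensity trend, and without the 4 arrays whose Aprt went against the label. There were 2 with the litter pair as a random replicate block and 3 as a fixed block, and 0 to 1 on leaving out an array or pair. At 1 month and in the interaction the count was 0 in each alternative. With age, a filter at the 60th percentile left 25 of the 41 genes, of which 22 were called in each genotype; leaving out an array or pair gave 32 to 37 in controls and 31 to 35 in KO, and the remaining alternatives stayed within 1.5 times of 36 and 35. In females alone the counts were 37 and 32. Quantile normalization gave 55.2% and 53.6% of all called genes as lower with age. The block changed no other call between genotypes among these genes. Signals near or below 29 give little more than a bound.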
